A study of Mus musculus with 2 samples.

Results

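The genes described here are 10 genes of the follicular helper programme and of the IL-6 receptor pathway, chosen by name from a read count table of 35275 genes. They are Bcl6, Cxcr5, Sostdc1, Tox2, Ascl2, Pou2af1, Icos, Il6ra, Il6st and Stat3, and each has 1 row in the table. RNA came from sorted TEa cells, which are CD4 T cells of C57BL/6 strain with a transgenic receptor for a peptide of the I-E alpha chain, taken from the spleen after adoptive transfer. In the group titled Exhaust the recipients were CB6F1 mice, whose own cells carry the antigen. In the group titled Effector the recipients were wild-type C57BL/6 mice that had received a BALB/c skin transplant. Both groups shared the donor cell, its strain and the transfer, while recipient strain and graft differed together with the amount of antigen and cannot be told apart. The ages of the mice, the time after transfer and the number of animals behind each library are not stated in the sources used here.

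Each group held 1 library, with 8508129 counted reads for exhausted cells and 7844445 for effector cells, so differences could not be set against variation between animals and carry no p-value. Ratios are exhausted over effector after scaling for library size, and the range after a ratio is its exact 95% Clopper-Pearson interval, which covers counting error only. A gene counted as higher or lower when its ratio reached 2-fold and the interval excluded equality, and as measured with at least 50 reads over both libraries. These are RNA levels in a bulk of sorted cells, where fewer cells of a kind and less RNA per cell cannot be told apart. T cell identity was checked on Cd3e, with 11432 reads in the exhausted and 7624 in the effector library, and on Cd4, with 15463 and 9272. Of 11 T cell markers, all measured, 10 were neither, while 13.7% of all measured genes passed the 2-fold rule in either direction. Trac, a constant segment of the receptor, was lower, with 11561 reads in exhausted and 22526 in effector cells. Trbc2, another constant segment, had 27705 and 29944 reads (ratio 0.855, 0.841 to 0.869). Lck, which encodes the kinase bound to CD4, had 15321 and 18053 reads. Cd8a and the B cell gene Ms4a1 were at 0 reads in both libraries, under a floor set at 3 reads. In contrast, Cd8b1 had 81 reads in exhausted and 164 in effector cells.

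Follicular helper cells are CD4 T cells that enter B cell follicles and help B cells form germinal centres. Their development depends on the repressor BCL6, on signals from ICOS and on cytokines that act through STAT3, among them IL-6 and IL-21. CXCR5 brings the cells to the follicle along its ligand CXCL13. IL-6 binds the alpha chain encoded by Il6ra, and the complex then engages gp130, encoded by Il6st, which signals through JAK kinases to STAT3. A follicular helper signature is also known from CD4 T cells that meet antigen for a long time.

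The genes of the programme did not share 1 direction between these libraries. Of the 10 genes, 9 were measured. Of these, 1 was higher in the exhausted library, against a background of 6.65% of all 9999 measured genes, 2 were lower, against 7.07%, and 6 were neither. Sostdc1 stood at one end and Cxcr5 and Tox2 at the other, while Bcl6 itself was nearly equal. Icos and Il6ra lay just inside 2-fold on opposite sides. Both directions together cover 13.7% of all measured genes, whose median log2 ratio was -0.0019, and 9 genes are too few to read a departure from that share. The same shares are the background for the counts of each list below.

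**Figure D1:**
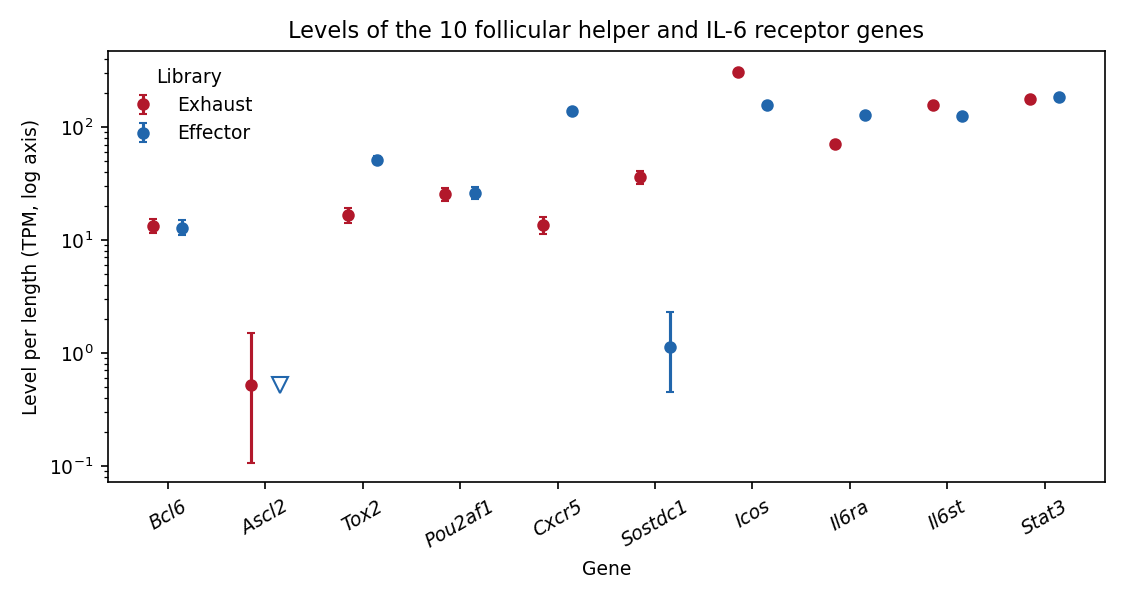
Level per length of each of the 10 genes in TPM (length-corrected share of all reads, log axis) in the exhausted library (red, left) and the effector library (blue, right), with 1 library per group. Bars are exact Poisson 95% intervals of the count, and the open triangle marks Ascl2 at 0 reads in the effector library, drawn at the level of 3 reads. Cxcr5 had 13.5 TPM in the exhausted and 140.0 TPM in the effector library, while Bcl6 had 13.3 and 12.9 TPM.

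Bcl6, on mm10 chromosome 16 from 23965052 to 23988852 on the minus strand (ENSMUSG00000022508), encodes the zinc finger repressor that defines follicular helper cells. It had 188 reads in the exhausted library and 181 in the effector library. After scaling the ratio was 0.960 (0.779 to 1.18), so the counting interval includes equality and lies well inside 2-fold on both sides. Per length this was 13.3 TPM in exhausted and 12.9 TPM in effector cells, below most measured genes, since 24.4% and 26.0% of them had a lower level.

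Bcl6 is a known target of STAT3 and other STAT factors, so its promoters are shown with those of Socs3 and Cish, both classical STAT-induced genes that differed strongly here. These comparison genes were chosen after the matches were seen. Sequences are from RefSeq on GRCm38.p6 and run from 250 bases before to 50 bases after a transcription start. RefSeq promoters were found for 7 of the 10 genes, all but Cxcr5, Sostdc1 and Icos. Capitals mark TTCNNNGAA, the core of a STAT element, which reads the same on both strands, and its positions count from the start site as 1, with negative numbers upstream.
Bcl6 upstream start, chr16:23988803-23989102, minus strand: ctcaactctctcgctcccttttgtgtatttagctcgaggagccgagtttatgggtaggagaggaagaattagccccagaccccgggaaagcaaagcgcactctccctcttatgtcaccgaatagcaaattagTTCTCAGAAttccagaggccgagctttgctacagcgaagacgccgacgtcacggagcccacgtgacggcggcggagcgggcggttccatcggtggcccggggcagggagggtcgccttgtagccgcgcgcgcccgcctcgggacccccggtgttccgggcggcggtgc
Bcl6 downstream start, chr16:23981234-23981533, minus strand: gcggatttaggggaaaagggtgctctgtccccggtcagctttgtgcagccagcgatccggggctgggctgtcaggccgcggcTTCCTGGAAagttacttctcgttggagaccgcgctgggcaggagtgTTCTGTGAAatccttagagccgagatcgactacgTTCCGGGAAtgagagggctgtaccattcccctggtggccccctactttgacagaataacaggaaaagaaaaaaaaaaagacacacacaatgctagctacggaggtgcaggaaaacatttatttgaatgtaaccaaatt
Socs3, chr11:117969317-117969616, minus strand: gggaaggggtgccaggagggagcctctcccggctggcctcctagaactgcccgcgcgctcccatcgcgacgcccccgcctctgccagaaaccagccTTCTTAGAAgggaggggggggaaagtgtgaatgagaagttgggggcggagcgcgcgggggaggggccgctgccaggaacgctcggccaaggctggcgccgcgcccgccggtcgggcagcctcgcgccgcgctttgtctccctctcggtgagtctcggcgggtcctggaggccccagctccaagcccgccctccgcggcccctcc
Cish, chr9:107296409-107296708, plus strand: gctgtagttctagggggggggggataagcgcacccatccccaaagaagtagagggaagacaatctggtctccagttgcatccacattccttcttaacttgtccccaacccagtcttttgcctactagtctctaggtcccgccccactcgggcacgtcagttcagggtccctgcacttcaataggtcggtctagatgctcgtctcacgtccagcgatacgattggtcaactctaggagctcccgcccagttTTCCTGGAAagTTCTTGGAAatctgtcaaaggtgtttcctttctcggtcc
The upstream Bcl6 promoter held 1 match at position -118, and the downstream one held 3, at positions -168, -122 and -88. Socs3 held 1 at -154, and Cish held 2, at 1 and 12, which do not overlap. Of all 32851 promoters of this length, 8.30% held at least 1 match, as did 9.55% of their 27025 genes. Among the 7 genes with a promoter here only Bcl6 had a match, and the 10 promoters of Tox2, Il6ra, Ascl2, Pou2af1, Stat3 and Il6st had none. With 7 genes no departure from the share of all genes can be read. The promoters of Il21, Prdm1, Bcl3 and Fos, listed STAT3 targets that also passed the 2-fold rule, had no match either, nor had those of Junb and Pim1. A match describes letters and is not evidence of binding in these cells.

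The gene of the main antagonist of BCL6 was far lower in exhausted cells. Prdm1, which encodes BLIMP-1, the repressor that opposes BCL6, had 4 reads in exhausted and 75 in effector cells. Within a library, a ratio of 2 genes per length is free of the scaling between libraries. There were 63.1 Bcl6 reads per Prdm1 read (24.2 to 234.03) in exhausted cells and 3.24 (2.46 to 4.30) in effector cells, corrected for gene length. Of the 19 genes listed as antagonists of BCL6 or as low in follicular helper cells, all measured, 7 were lower in the exhausted library, none was higher and 12 were neither. Their median log2 ratio was -0.31. The background shares over all measured genes were 7.07% lower and 6.65% higher. Runx2, which encodes a Runt family factor, had 6 reads in exhausted and 121 in effector cells and was 21.8-fold lower (9.74 to 60.6). Foxo1, whose product restrains follicular helper differentiation, was 2.95-fold lower (2.76 to 3.15). Selplg, which encodes the selectin ligand PSGL-1, was 2.78-fold lower (2.66 to 2.91). The remaining lower genes were Il12rb2, Il2ra, Tbx21 and Prdm1, of which Il12rb2 shares exon bases with Serbp1 on the other strand. Of the 19 genes, 6 had ratios above 1, all inside 2-fold. Among them were Id2, which opposes E proteins, and Gata3, at 1.67 (1.56 to 1.79) and 1.65 (1.52 to 1.81). Il18r1 and Klf2 were at 1.53 (1.25 to 1.89) and 1.42 (1.36 to 1.48).

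Genes for proteins that work with BCL6 were mixed. Of 16 listed corepressors and cofactors 15 were measured, of which 3 were higher, 2 lower and 10 neither. Their median log2 ratio was 0.17. In either direction 13.7% of all measured genes passed the rule. The class IIa deacetylase genes Hdac7 (2.64-fold, 2.47 to 2.83) and Hdac5 (2.40-fold, 2.10 to 2.74) were among those higher in the exhausted library. Cul3, which encodes a ubiquitin ligase scaffold, was 2.25-fold lower (2.11 to 2.39). Mta3 was 2.12-fold lower, and its product is a cofactor of BCL6 in B cells.

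Ascl2, on chromosome 7 from 142966822 to 142969264 (ENSMUSG00000009248), encodes a basic helix-loop-helix factor that induces Cxcr5 in mouse T cells. It had 3 reads in the exhausted library and 0 in the effector library. Both are at or under the floor of 3 reads, so it was not measured and has no fold. In the effector library 0 reads allow a level of up to 0.521 TPM, and 3 reads in the exhausted library correspond to 0.519 TPM. Genes of the E proteins with which such factors pair were detected. Tcf3 had 753 reads in exhausted and 1112 in effector cells, and Tcf12 had 644 and 1136. Both lay under 2-fold, at 1.60-fold (1.45 to 1.75) and 1.91-fold lower (1.73 to 2.11). Tcf4, which encodes another E protein, had 39 and 18 reads and just passed the rule upwards (2.003-fold, 1.12 to 3.72). Id3, which encodes an inhibitor of E proteins, was 4.45-fold higher (8771 against 1822 reads). Of 11 listed E protein, Id protein and octamer factor genes 7 were measured, with 3 higher, none lower and 4 neither. With 6.65% of all measured genes higher, 7 genes are too few to read a departure.

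Tox2, on chromosome 2 from 163203125 to 163324170 on the plus strand (ENSMUSG00000074607), encodes an HMG-box factor that promotes the follicular helper state in mice. It had 175 reads in the exhausted library and 541 in the effector library and was 3.34-fold lower (2.81 to 3.99). Of all measured genes 3.05% had a smaller ratio. Its relative Tox differed in the opposite direction, with 3415 reads in exhausted and 805 in effector cells (3.92-fold higher, 3.63 to 4.24). Per length there were 14.5 Tox reads for each Tox2 read in exhausted cells (12.5 to 17.0), whereas in effector cells the pair was nearly even at 1.11 (0.992 to 1.24). The third relative detected, Tox4, differed little (1.10-fold, 1.03 to 1.18), although it shares exon bases with Mettl3 and Rab2b on the other strand. Tox3 had 0 reads in both libraries. Of 9 listed TOX and HMG-box genes 8 were measured, and Tox alone among them was past 2-fold, with a list median log2 ratio of 0.065.

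Pou2af1, on chromosome 9 from 51213690 to 51240079 on the plus strand (ENSMUSG00000032053), encodes OBF-1, a coactivator that binds the octamer factors OCT1 and OCT2 and is best known from B cells. It had 234 reads in the exhausted library and 240 in the effector library, a ratio of 0.901 (0.7496 to 1.08). Pou2f2, which encodes OCT2, was 2.62-fold higher (2.13 to 3.25), with 352 reads in exhausted and 124 in effector cells. Pou2f1, which encodes OCT1, had only 26 and 32 reads and shares exon bases with Cd247 on the other strand.

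Because Pou2af1, Bcl6 and Cxcr5 are also expressed in B cells, 19 B cell markers in the table were summed. They reached 478.19 CPM (scaled counts relative to library size) in the exhausted library and 1071 CPM in the effector library. Nearly all of this was Ighm, with 3851 reads in exhausted and 7540 in effector cells, besides Cd22, with 4 and 603, and Igkc, with 133 and 223. The other 16 markers together had 75 reads in exhausted and 45 in effector cells. Among these, named after their values were seen, Btk alone had 44 of the exhausted and 5 of the effector reads. Cd79a had 18 and 8 reads, whereas Cd79b had 2 and 12 and Bank1 had 0 and 13. Of the 19, 5 were at 0 in both libraries, among them Ms4a1, Blk, Fcer2a and Spib. Regulatory T cells can also carry Cxcr5 and Bcl6. Of 6 markers of that lineage, all measured, 1 was higher, 3 were lower and 2 were neither. Their sums were 169 CPM in exhausted and 139 CPM in effector cells. Those with most reads were Ctla4 (762 reads in exhausted and 464 in effector cells), Ikzf2 (459 and 173) and Tnfrsf18 (190 and 302). Foxp3 had 12 reads in exhausted and 44 in effector cells. Of 5 measured CD8 T cell and NK cell markers 4 were lower and 1 was higher, with sums of 84.5 CPM in exhausted and 200.1 CPM in effector cells. Cd8b1 (2.19-fold) and Nkg7 (396 reads in exhausted and 1244 in effector cells) were among the lower ones, and Klrb1c (229 and 36 reads) was the higher one. Dendritic and myeloid markers summed to 74.4 and 65.9 CPM, mostly through Cst3 (375 and 305 reads) and Itgam (183 and 22). Among the sparse markers, named after their values were seen, Lyz2 (10 and 37), S100a8 (1 and 30) and S100a9 (2 and 32) leaned to effector cells. Zbtb46 (26 and 22) did not. Erythroid and platelet markers summed to 1.29 and 9.17 CPM. Plasma cell markers summed to 282 and 145 CPM through Xbp1, Irf4 and Prdm1, which T cells also express, while Sdc1 and Tnfrsf17 were at 0. T cell markers summed to 14484 CPM in exhausted and 14621 CPM in effector cells. The part of such cells in the results was not tested.

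Cxcr5, on chromosome 9 from 44511788 to 44556391 on the minus strand (ENSMUSG00000047880), encodes the receptor for the follicle chemokine CXCL13. It had 137 reads in the exhausted library and 1413 in the effector library and was 11.2-fold lower (9.36 to 13.4). Only 0.790% of measured genes had a smaller ratio. In the effector library its level of 140.0 TPM exceeded that of 86.9% of measured genes, and in the exhausted library its 13.5 TPM exceeded that of 24.7%. Its exons share 110 bases, 3.30% of their length, with Bcl9l on the other strand, and whether strand was used in counting is not stated. Bcl9l itself had more reads in exhausted cells, 402 against 246 in effector cells.

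Most other genes listed around follicle positioning lay inside 2-fold. Besides receptors the list holds the ligand gene Cxcl13 and Klf2, Ebi3, Gnai2, Grk6 and Arrb2, which do not encode positioning receptors. Of 13 listed, 10 were measured, of which 1 was higher, none lower and 9 neither. Their median log2 ratio was 0.025. With 13.7% of all measured genes past the rule in either direction, 10 genes are too few to read a departure. Gpr183, which encodes the oxysterol receptor EBI2 that guides cells to the outer follicle and T zone border, was 2.35-fold higher (2.22 to 2.49) in the exhausted library. Ccr7, which encodes the T zone receptor, was 1.24-fold lower (1.20 to 1.29). Cxcr4, which encodes the receptor that draws cells to the germinal centre dark zone, had 324 reads in exhausted and 152 in effector cells and fell short of 2-fold (1.97-fold, 1.62 to 2.41). S1pr2, which encodes a receptor that retains cells in germinal centres, had 208 and 209 reads. S1pr1, which encodes the receptor for exit into lymph, had 7183 and 6652 reads. Per length there were 0.0174 Cxcr5 reads per Ccr7 read in exhausted cells (0.0146 to 0.0206) and 0.157 in effector cells (0.148 to 0.166). The ligand gene Cxcl13 had 0 and 2 reads.

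Sostdc1, on chromosome 12 from 36314169 to 36318452 on the plus strand (ENSMUSG00000036169), encodes a secreted antagonist of WNT and BMP signals that mouse follicular helper cells are known to express. It had 226 reads in the exhausted library and 7 in the effector library and was 29.8-fold higher (14.3 to 75.1). The width of that interval comes from the 7 effector reads. Its ratio ranked 41 among the 9999 measured genes. No exon of another gene overlaps it in GENCODE M21. Of 23 listed WNT and BMP receptors, ligands and targets only 5 were measured, 2 of them higher and 3 neither. Axin2, a standard target of WNT signalling through beta-catenin, had 271 reads in exhausted and 81 in effector cells (3.09-fold higher, 2.40 to 4.02). Acvr2a, which encodes a type II receptor for activins and BMPs, was 2.99-fold higher (2.06 to 4.43), with exon overlap to Orc4 on the other strand. Lrp6, the gene of a WNT coreceptor to which SOSTDC1 binds, had 475 reads in exhausted and 306 in effector cells (1.44-fold, 1.24 to 1.66). The receptor genes Lrp4, Fzd1, Fzd2, Fzd4, Fzd7, Fzd8 and Bmpr1b were at 0 in both libraries.

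**Figure D2:**
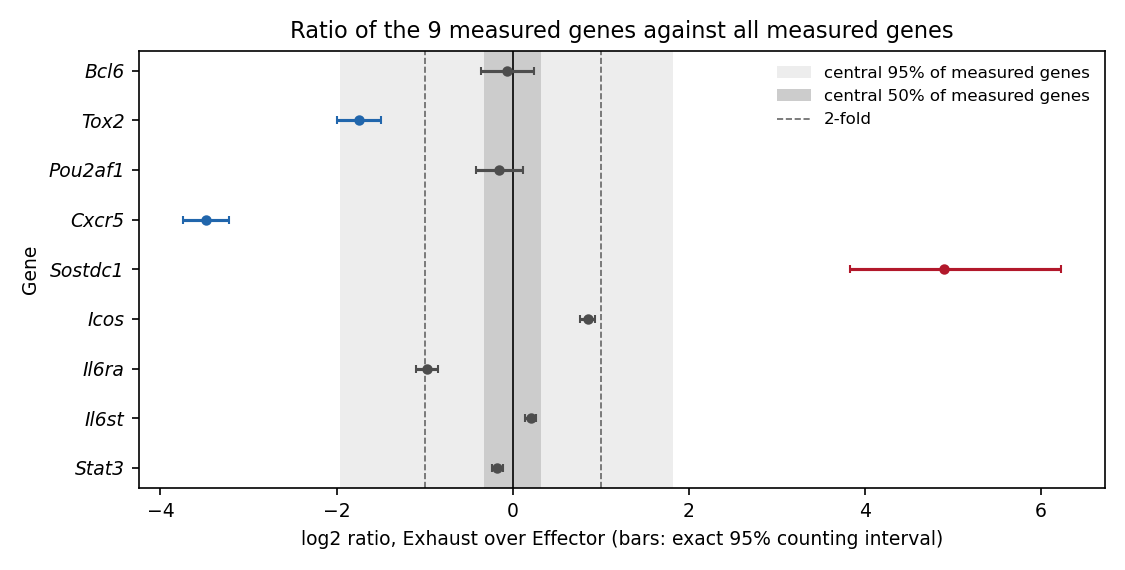
Log2 ratio of exhausted over effector for the 9 measured genes, with exact 95% counting intervals, over bands that hold the central 50% and 95% of all 9999 measured genes. Red marks a gene higher and blue a gene lower by the 2-fold rule, and grey neither. Sostdc1 and Cxcr5 lie outside the wider band, and Tox2, Il6ra and Icos lie between the bands.

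Icos, on chromosome 1 from 60977927 to 61000320 on the plus strand (ENSMUSG00000026009), encodes a costimulatory receptor of the CD28 family that activates PI3 kinase and sustains follicular helper cells. It had 3576 reads in the exhausted library and 1830 in the effector library. The ratio of 1.81 (1.71 to 1.91) excluded both equality and 2-fold. At 307.43 TPM it had the highest level per length of the 10 genes in exhausted cells, while in effector cells it came second, at 158 TPM, after Stat3.

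Most genes around ICOS signalling lay inside 2-fold, as did most measured genes. Of 22 listed, all measured, 1 was higher, 2 were lower and 19 were neither, with a median log2 ratio of 0.014. Pik3ip1, which encodes an inhibitor of PI3 kinase, had 458 reads in exhausted and 1449 in effector cells and was 3.42-fold lower (3.08 to 3.81). Foxo1, which encodes a factor that PI3 kinase signalling inactivates, was the other lower gene. Icosl, which encodes the ICOS ligand, had 89 reads in exhausted and 26 in effector cells (3.16-fold higher, 2.02 to 5.11). Among genes named after their values were seen, Pik3cd, which encodes the delta catalytic subunit used by lymphocytes, was 1.65-fold lower (1.58 to 1.72). Rc3h1, which encodes Roquin-1, a protein that degrades Icos mRNA, had 578 reads in exhausted and 346 in effector cells, 1.54-fold more (1.35 to 1.77).

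Il6ra, on chromosome 3 from 89869324 to 89913162 on the minus strand (ENSMUSG00000027947), encodes the ligand-binding chain of the IL-6 receptor. It had 842 reads in the exhausted library and 1523 in the effector library and was 1.96-fold lower (1.80 to 2.13), just short of the rule, with an interval that includes 2-fold. Of all measured genes 7.37% had a smaller ratio. In GENCODE M21 its exons share 242 bases with the antisense gene Gm42809, and those of Bcl6 share 21 bases with Gm37419 on the other strand. Il6st, on chromosome 13 from 112464070 to 112510086 on the plus strand (ENSMUSG00000021756), encodes gp130, the signalling chain shared by IL-6, IL-27 and related cytokines. It had 4859 reads in exhausted and 3897 in effector cells, a ratio of 1.15 (1.10 to 1.20).

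The balance of the receptor chains differed between the libraries. Per length there were 2.22 Il6st reads for each Il6ra read in exhausted cells (2.07 to 2.39), whereas in effector cells they were even, at 0.986 (0.929 to 1.05). The chains that other cytokines of the family use with gp130 were not alike. Il27ra, which encodes the IL-27 receptor alpha chain, had 6985 reads in exhausted and 3089 in effector cells and was 2.09-fold higher (2.003 to 2.18). Lifr, Osmr and Cntfr had at most 2 reads in either library, and Il6 itself had 0 in both.

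Stat3, on chromosome 11 from 100885098 to 100939540 on the minus strand (ENSMUSG00000004040), encodes the transcription factor that gp130 activates. It had 3855 reads in the exhausted library and 4012 in the effector library, a ratio of 0.888 (0.850 to 0.929). Its exons share 72 bases, 0.760% of their length, with Stat5a on the other strand. The kinases upstream of it, named after their values were seen, were also well inside 2-fold. Jak1 had 15064 reads in exhausted and 15984 in effector cells, Jak2 had 3078 and 2421 (ratio 1.18, 1.11 to 1.24), and Tyk2 had 1568 and 1467.

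The SOCS family genes Socs3 and Cish were much lower in exhausted cells, while Socs1 was nearly equal. Socs3, which encodes the protein that binds gp130 and blocks its JAK kinases, had 85 reads in exhausted and 542 in effector cells and was 6.90-fold lower (5.48 to 8.78). Cish, which encodes a SOCS family inhibitor induced through STAT5, had 12 and 98 reads and was 8.83-fold lower (4.84 to 17.7). Socs1, with 187 reads in exhausted and 185 in effector cells, did not differ beyond counting error (ratio 0.934, 0.758 to 1.15). Ptpn11, which encodes the phosphatase SHP-2 that docks on gp130, had 1854 reads in exhausted and 330 in effector cells and was 5.19-fold higher (4.62 to 5.86). Il10ra was 2.40-fold higher and Il10rb 2.74-fold lower (2.32 to 3.25), and these encode the chains of the IL-10 receptor, which also signals to STAT3. Over the list of IL-6 family receptors and signal transduction, 22 of 29 genes were measured, of which 3 were higher, 3 lower and 16 neither. Their median log2 ratio was -0.058. Over all measured genes 6.65% were higher and 7.07% lower. For each Socs3 read there were 19.2 Stat3 reads per length in exhausted cells (15.5 to 24.0) and 3.13 in effector cells (2.86 to 3.43).

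**Figure D3:**
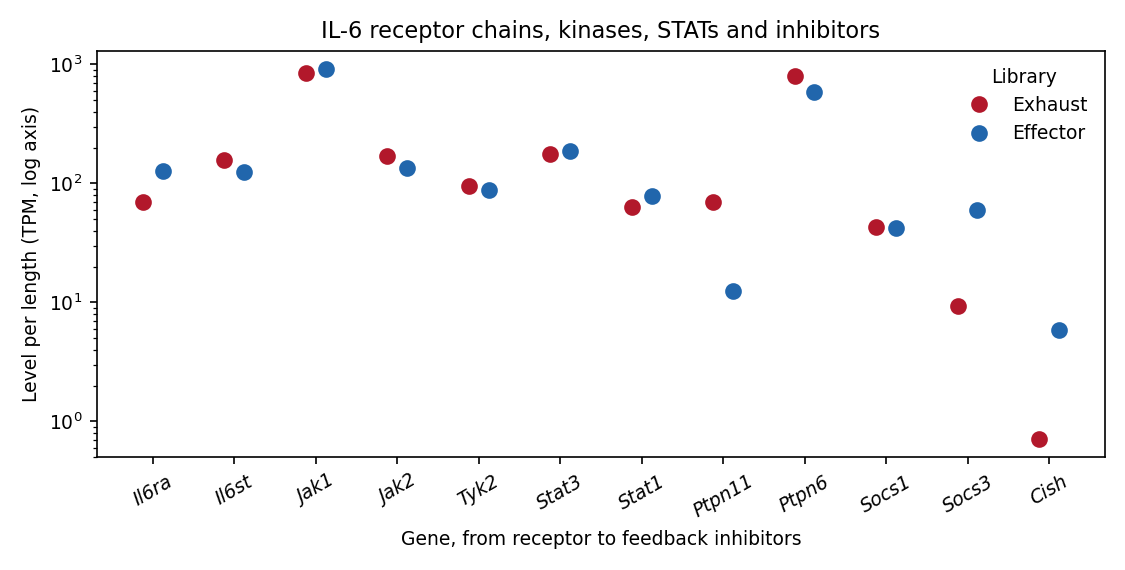
Level per length in TPM (log axis) of genes from the IL-6 receptor to inhibitors of cytokine signalling, in the exhausted library (red, left) and the effector library (blue, right), with 1 library per group and no error bars. Socs3 and Cish are lower and Ptpn11 is higher in the exhausted library by the 2-fold rule, Il6ra lies lower but just inside 2-fold, and Jak1, Tyk2, Stat3 and Socs1 nearly coincide.

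Genes listed as STAT3 targets split in direction. Of 23 listed, 21 were measured, of which 4 were higher, 5 lower and 12 neither. Their median log2 ratio was -0.16. The background shares were 6.65% higher and 7.07% lower. The lower ones of the list were Prdm1, Cish, Socs3, Bcl3 and Fos, although Cish is described above as induced through STAT5. Bcl3, which encodes an atypical NF-kB regulator, had 164 reads in exhausted and 506 in effector cells and was 3.34-fold lower (2.79 to 4.005). The higher ones were Il21, Maf, Irf4 and Rora. Maf and Irf4, which encode factors of several helper lineages, had 866 and 693 reads in exhausted cells, against 169 and 203 in effector cells.

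Of 32 further genes listed for the follicular helper programme, 28 were measured. Among these, 15 were higher in the exhausted library, 1 was lower and 12 were neither. Their median log2 ratio was 1.27, against -0.0019 for all measured genes, of which 6.65% were higher and 7.07% lower. The 15 include Id3, the inhibitor of E proteins, and Gpr183, whose product guides cells to the outer follicle and T zone border. Not all of the 15 are particular to follicular helper cells. Pdcd1 and Btla encode inhibitory receptors, Egr2 an antigen-induced factor, and Maf and Irf4 factors of several helper lineages. Which programme these levels reflect was not tested, and Cxcr5, Tox2 and Bcl6 were not higher. The list was chosen with earlier results of these data known, and it shares Il21, Maf, Irf4 and Batf with the STAT3 target list. It also shares Gpr183, Cxcr4 and S1pr2 with the positioning list, Id3 with the E protein list, and Tcf7 and Lef1 with the TOX list. The cytokine genes of the programme were at the top, with 600 reads of Il4 in exhausted and 2 in effector cells, and 1501 and 16 reads of Il21. Il21 shares exon bases with the antisense gene Gm12534. Angptl2, which encodes a secreted angiopoietin-like protein, had 6869 reads in exhausted and 140 in effector cells and was 45.4-fold higher (38.4 to 54.0).

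Genes of some surface proteins and transcription factors in the same list were higher by smaller factors. Egr2, which encodes an antigen-induced factor upstream of Bcl6 in mice, was 3.42-fold higher (3.04 to 3.86). Nfatc1, which encodes a calcium-dependent factor, had 13792 reads in exhausted and 5015 in effector cells (2.54-fold, 2.46 to 2.63). Pdcd1, Tnfsf8, Cd200, Btla and Slamf6 were higher by 2.46-fold to 8.47-fold. Il1r1 was 6.93-fold higher (2.95 to 19.9), on only 45 reads in exhausted and 6 in effector cells. Others that act in contact with B cells lay inside 2-fold. Cd40lg, which encodes CD40 ligand, had 1795 reads in exhausted and 1236 in effector cells (1.34-fold, 1.25 to 1.44). Sh2d1a, which encodes the adaptor SAP that follicular helper cells need for stable contact with B cells, was 1.52-fold lower (1.39 to 1.66). Cd84, which encodes a SLAM family adhesion receptor, was at 1.13-fold (1.05 to 1.20).

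Other factors of the list lay close to equality. Tcf7 and Lef1, which encode the HMG-box factors TCF1 and LEF1, had ratios of 0.984 (0.964 to 1.004) and 1.03 (0.995 to 1.08), and Batf had 0.969 (0.870 to 1.08). P2rx7, which encodes an ATP receptor, had 1457 reads in exhausted and 1345 in effector cells. Pde3b, which encodes a phosphodiesterase, was the one gene of the list past the rule downwards, with 453 reads in exhausted and 2563 in effector cells (6.12-fold lower, 5.54 to 6.78).

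**Figure D4:**
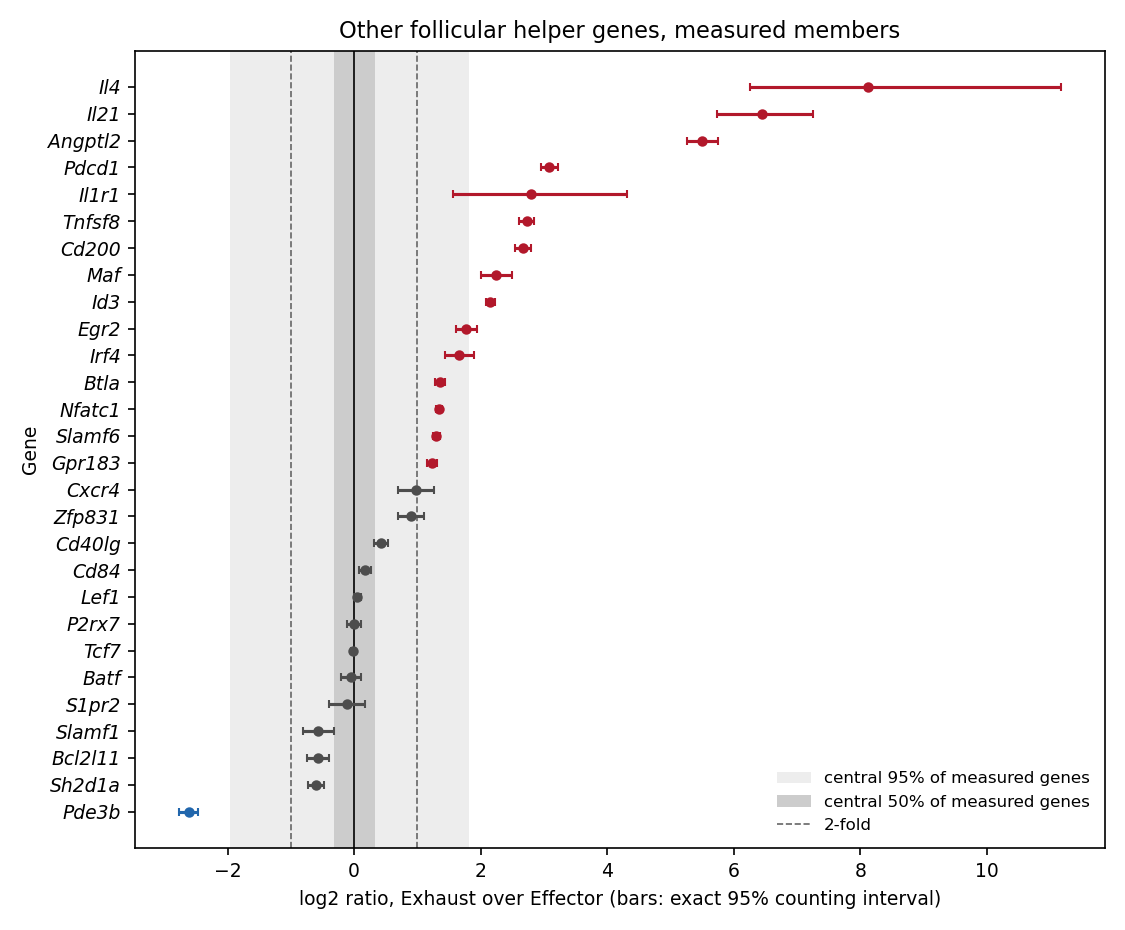
Log2 ratio of exhausted over effector for the 28 measured genes of the list of further follicular helper genes, sorted by ratio, with exact 95% counting intervals. Bands hold the central 50% and 95% of all 9999 measured genes. Of the 28 genes 15 are higher (red) and Pde3b is lower (blue), while 12 in grey, from Cxcr4 to Sh2d1a, are neither.

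The order of the 10 genes by level per length differed between the libraries. In exhausted cells it ran from Icos (307.43 TPM) through Stat3 (178 TPM), Il6st (156 TPM), Il6ra (70.2 TPM), Sostdc1 (36.0 TPM), Pou2af1 (25.4 TPM), Tox2 (16.5 TPM), Cxcr5 (13.5 TPM) and Bcl6 (13.3 TPM) to Ascl2. The Poisson intervals of neighbours in that order overlapped only between Tox2 and Cxcr5 and between Cxcr5 and Bcl6. In effector cells it ran from Stat3 (186 TPM) through Icos (158 TPM), Cxcr5 (140.0 TPM), Il6ra (127 TPM), Il6st (126 TPM), Tox2 (51.4 TPM), Pou2af1 (26.2 TPM), Bcl6 (12.9 TPM) and Sostdc1 (1.12 TPM) to Ascl2. There the intervals of Cxcr5 and Il6ra, of Il6ra and Il6st, and of Sostdc1 and Ascl2 overlapped. Cxcr5 was the eighth in exhausted cells and the third in effector cells, and Sostdc1 was the fifth and the ninth.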

How the data were processed

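Read counts were deposited by the authors as whole numbers in 1 table, with a column for each library and no normalization. Per the file headers the table also holds gene symbols, positions, lengths and types. The submitters' processing notes name STAR 2.6 and mm10. How reads were counted, with which strand setting and annotation, and what became of shared reads, is not stated there. Libraries were low-input total RNA made with a Takara kit per the labels' protocols. No molecular identifiers are recorded, so amplified copies of a molecule may be counted more than once and intervals cover counting error only.

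Counts were divided by effective library sizes (edgeR 4.0.16, TMM over genes with at least 50 reads, R 4.3.3), with factors of 0.999 for exhausted and 1.001 for effector cells. A gene with 0 reads in 1 library was set to 3 reads. Intervals are exact Clopper-Pearson 95% (scipy 1.17.1). TPM used the gene lengths of the table. The rule was tested on simulated counts. Exon overlap came from GENCODE M21 (GRCm38), whose gene limits equal those of the table for 5 of the 10 genes. The members and the 10 pathway and 7 marker lists were chosen with earlier results of these data known. Of the list entries 4 were matched through the Ensembl ID and 1 (Ighd) had no row. Named genes were all members, up to 4 per list past the 2-fold rule with the largest log2 ratio, the measured follicular helper genes, the 3 markers with most reads per list, and genes that overlap a member. Others, such as Gpr183's neighbours in the positioning list, kinases, genes at 0 and genes that complete a count, were named after their values were seen. Alternative settings covered the scaling (among them size factors of DESeq2 1.42.0), depth, floor, read minimum and size rule. A few genes within this rule are left out of the text.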

Additional observations from a re-analysis of the deposited data

How the results depend on the processing

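No paired analysis was possible because each group has 1 library, and for the same reason no replicate could be left out. The 9 folds kept their direction and their side of the 2-fold rule under DESeq2 size factors, total counts, upper quartile factors, thinning of the deeper library and a prior count of 2, and each stayed within its counting interval. Il6ra, nearest to the threshold, ranged from 0.510 to 0.520 over these settings, and Sostdc1 from 23.4 to 30.1. With a minimum of 500 reads 6 genes were measured and 0 of them were higher, because Sostdc1 has too few reads. With a 4-fold rule 1 gene, Cxcr5, was lower in place of 2. Of 137 measured distinct genes of the pathway lists, 10 were higher and 8 lower by that rule, in place of 28 and 16. At 2-fold the shares over all measured genes were 6.65% higher and 7.07% lower. The shares at 4-fold were not computed, so the 4-fold counts have no background to be read against. The median log2 ratio of the STAT3 target list was 0.024 over the 15 genes with at least 500 reads, against -0.16 over all measured members and -0.31 with a minimum of 1 read. That of the list of BCL6 antagonists was -0.14 with at least 500 reads, against -0.31. The cause was not tested. The order of the genes by level was the same in RPKM as in TPM. Depth limits Ascl2 in both libraries and Sostdc1 in effector cells, and without replicate libraries none of these differences can be set against the variation between animals.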

Other observations

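Icos lies beside its relatives Cd28 and Ctla4 on mm10 chromosome 1, and this stretch was examined after the values of Icos were seen. All 3 receptor genes had more reads in exhausted cells and none reached 2-fold. Cd28 had 9111 reads in exhausted and 5102 in effector cells (ratio 1.65, 1.60 to 1.71), and Ctla4 had 762 and 464 (1.52, 1.35 to 1.71), beside 1.81 for Icos. Per length there were 0.526 Icos reads per Cd28 read in exhausted cells (0.506 to 0.547) and 0.481 in effector cells (0.456 to 0.508). Upstream of Cd28, Raph1, which encodes lamellipodin, a regulator of actin at the cell edge, had 199 reads in exhausted and 46 in effector cells and was 3.999-fold higher (2.89 to 5.64). Gm11579, an annotated gene on the minus strand between Cd28 and Ctla4, was 2.22-fold higher (1.78 to 2.78). Abi2 and Cyp20a1, farther upstream, had ratios of 1.35 (1.15 to 1.59) and 0.893 (0.703 to 1.13).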
